A study of Mus musculus with 23 samples.

Results

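Cdhr1, Slc26a9 and Pdzrn4 are 3 of the 53607 gene rows in a count table of mouse embryonic stem cells. They were chosen from the measured values, as genes that stood high where RAS was deleted with ERF wild type, and low or near zero in the libraries labelled ERF knockout. All 3 passed the filter on low counts and were among 20372 tested genes. Since all 8 groups entered the choice, their values are given as descriptions without p-values. Across 8 groups and 23 libraries the 3 genes followed 2 patterns rather than 1. Cdhr1 and Slc26a9 stood out with RAS deleted in the medium FA, whereas Pdzrn4 stood out with RAS deleted in the medium 2iL and was at 1 to 3 counts in the corresponding FA libraries.

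All libraries came from 1 line background, Raslox/lox, whose label gives H-Ras and N-Ras as null on both alleles and the remaining Ras gene as floxed. Its Cre recombinase, fused to a tamoxifen-responsive receptor, is driven by a ubiquitin promoter. Groups labelled RAS deleted had received 4-hydroxytamoxifen (OHT) for 6 days. Groups labelled RAS present were untreated, so OHT and the deletion cannot be told apart. The second factor was the label ERF wild type or ERF knockout. The labels do not say whether the knockout is 1 clone. The third factor was the medium. Cells were kept in 2iL, a serum-free medium with the MEK inhibitor PD0325901, the GSK3 inhibitor CHIR99021 and the cytokine LIF, or were moved for 48 hours to FA, which holds FGF2 and Activin A and drives naive cells toward epiblast-like cells. Of the 8 groups, 7 had 3 libraries, and the untreated ERF wild-type cells in FA had 2. Nothing says that replicates were separate cultures, so the p-values measure the spread between these libraries, which may be technical.

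RAS proteins pass signals from growth factor receptors to the kinases MEK and ERK. ERF is a repressor of the ETS family that ERK holds inactive by phosphorylation and nuclear export. None of the 3 genes is known as a component of that pathway. Cdhr1 encodes a cadherin-related membrane protein best known from photoreceptor outer segments, where it serves disc formation. Slc26a9 encodes a chloride channel and transporter of the SLC26 anion family, known from airway and gastric epithelium. Pdzrn4 encodes an intracellular protein with RING and PDZ domains, related to the LNX ubiquitin ligases.

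The genes lie on different chromosomes. In the GENCODE M21 annotation of GRCm38, the build named in the submitters' processing notes as mm10, Cdhr1 spans chr14:37077857-37098347 on the minus strand. It has 1 annotated transcript of 17 exons and 4332 bases. Slc26a9 spans chr1:131744022-131771504 on the plus strand, and its full coding transcript has 21 exons and 4739 bases. Pdzrn4 spans chr15:92396881-92771819 on the plus strand. A 10-exon coding transcript of 3102 bases begins at its outer start, and an 8-exon coding transcript of 3376 bases begins inside the gene at position 92597126. A predicted gene on the opposite strand lies inside Pdzrn4; the library kit keeps the strand, but how the strand was set in the counting is not given in the sources used here.

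The 250 bases before each start site, from RefSeq on GRCm38.p6, are shown because the groups differ in the label of an ETS factor. They cover chr14:37098348-37098597 for Cdhr1, chr1:131743772-131744021 for Slc26a9, chr15:92396560-92396809 for the outer start of Pdzrn4 and chr15:92596859-92597108 for its internal start. RefSeq places the 2 Pdzrn4 starts at 92396810 and 92597109. The windows run 5′ to 3′ on the strand of the gene, and capitals mark GGAAGT, a form of the ETS core, on either strand.
Cdhr1: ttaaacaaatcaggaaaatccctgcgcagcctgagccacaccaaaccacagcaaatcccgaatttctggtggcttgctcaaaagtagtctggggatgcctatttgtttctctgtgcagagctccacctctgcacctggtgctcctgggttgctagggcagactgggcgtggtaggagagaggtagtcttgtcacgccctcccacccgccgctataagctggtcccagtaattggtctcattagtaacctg
Slc26a9: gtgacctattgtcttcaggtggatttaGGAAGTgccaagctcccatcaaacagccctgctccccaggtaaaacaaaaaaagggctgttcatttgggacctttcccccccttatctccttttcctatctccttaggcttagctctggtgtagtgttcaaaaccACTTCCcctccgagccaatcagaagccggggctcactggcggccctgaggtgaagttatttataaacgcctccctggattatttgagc
Pdzrn4, outer start: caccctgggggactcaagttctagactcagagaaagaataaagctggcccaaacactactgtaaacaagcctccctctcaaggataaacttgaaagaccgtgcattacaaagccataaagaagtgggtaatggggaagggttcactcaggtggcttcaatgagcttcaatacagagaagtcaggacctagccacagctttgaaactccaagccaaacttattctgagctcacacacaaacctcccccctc
Pdzrn4, internal start: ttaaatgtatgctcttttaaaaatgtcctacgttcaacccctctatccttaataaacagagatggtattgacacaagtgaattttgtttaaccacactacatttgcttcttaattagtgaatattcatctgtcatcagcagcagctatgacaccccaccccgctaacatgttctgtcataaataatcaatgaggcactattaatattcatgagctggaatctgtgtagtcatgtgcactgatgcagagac

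Slc26a9 held 2 matches to GGAAGT, 1 as GGAAGT with its first base 223 bases before the start and 1 on the other strand, as ACTTCC, with its first base 88 bases before it. None was found in the windows of Cdhr1 and Pdzrn4. The longer form CGGAAGT, of which GGAAGT is a part, the AP-1 motif TGAGTCA, which reads TGACTCA on the other strand, and the octamer-like ATGCAAA were searched on both strands and were in none of the 4 windows. GGAAGT was in 19.7% of the 250-base windows before 32851 starts in the same table, CGGAAGT in 4.92%, TGAGTCA in 4.46% and ATGCAAA in 4.12%. A match is a description of the letters and not a binding site. The GC content was 53.2% for Cdhr1, 50.0% for Slc26a9, and 47.2% and 37.2% for the outer and internal starts of Pdzrn4.

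Depth ran from 16.2 to 29.9 M counts per library, with a median of 21.97 M. Levels below are given in CPM, counts scaled to a common library size after adjustment by TMM, a trimmed-mean method. Transcripts of the targeted genes Erf, Hras and Nras were counted in every library, also where the labels give the gene as lost. Erf in 2iL was higher under the knockout label, at 116 against 77.6 CPM with RAS present (SD 17.5 and 7.66, n = 3 each) and at 152 against 87.8 CPM with RAS deleted (SD 21.0193 and 4.13, n = 3 each). Under the knockout label in FA, Erf had slightly lower means with overlapping ranges, at 57.5 against 63.1 CPM with RAS present and 60.6 against 69.7 CPM with RAS deleted. Hras, labelled null, had group means of 12.5 to 25.4 CPM. Nras, labelled null too, had group means of 15.6 to 43.1 CPM, and its knockout-labelled 2iL libraries spread from 5.32 to 52.3 CPM. Counts per gene do not show which part of a gene was read. The knockout group is therefore called by its label throughout, and the ERF comparisons are comparisons of labels. Pluripotency markers (6 genes) were present in every library. Replicate libraries of 1 group differed by more than counting noise, with a chi-square of 3.04 to 44.9 per degree of freedom over 22 pairs.

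Cdhr1 was the most abundant of the 3. With ERF wild type and RAS deleted in FA its replicates held 91.6, 68.7 and 65.7 CPM (2091, 1695 and 1829 counts). Without deletion the 2 FA libraries held 0.540 and 0.474 CPM (15 and 10 counts). The 2 groups were far apart, with a log2 difference of 7.19 (SE 0.37), or 146-fold. In the knockout-labelled RAS-deleted FA group the values were 3.51, 4.37 and 4.56 CPM, 18.2-fold below ERF wild type, and in the knockout-labelled RAS-present FA group they were 0.530, 0.912 and 0.399 CPM. So in FA the knockout-labelled cells were low in Cdhr1, yet those with RAS deleted lay above every FA library with RAS present.

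In 2iL Cdhr1 varied less between groups than in FA. ERF wild type held 5.46, 3.21 and 4.41 CPM with RAS present and 10.1, 5.58 and 6.00 CPM with RAS deleted. The knockout-labelled libraries held 4.18, 4.98 and 5.26 CPM with RAS present and 3.53, 4.98 and 2.63 CPM with RAS deleted. By group mean the order of all 8 groups was headed by ERF wild type with RAS deleted, in FA and then in 2iL, and neither overlapped the next group. The following 4 means, 4.81 ± 0.559 CPM (SD, n = 3) at most and 3.71 ± 1.19 CPM (SD, n = 3) at least, belonged to groups whose ranges overlapped their neighbours in the order. The 2 FA groups with RAS present were lowest, overlapped each other and were clear of all others.

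Slc26a9 had the same high group at a lower level. Its replicates with ERF wild type and RAS deleted in FA held 7.10, 8.55 and 9.85 CPM (162, 211 and 274 counts). Every other FA library held 5 counts or fewer: 3 and 1 with ERF wild type and RAS present, 1, 2 and 5 in the knockout-labelled libraries with RAS present, and 3, 1 and 1 in those with RAS deleted. Summed counts of 647 against 4 gave a depth-scaled ratio of 105 between RAS deleted and RAS present with ERF wild type, with a 95% exact interval of 40.8 to 387. Against the knockout label with RAS deleted, 647 against 5 counts gave a ratio of 137 (58.4 to 423). These intervals, like the others below, cover counting error only, since the reads carry no molecular identifiers and several can stem from 1 molecule. A fitted log2 value against a group at 3 counts or fewer depends on the small count that the model adds, which holds for 6.61 (SE 0.53) and -6.97 (SE 0.45) in these 2 comparisons. Without replicate 1 of the RAS-present group, which held 3 of its 4 counts, the first became 7.34.

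The 2iL groups of Slc26a9 were ordered by the ERF label rather than by RAS. With ERF wild type it held 0.595, 1.49 and 2.00 CPM with RAS present and 1.18, 1.62 and 1.89 CPM with RAS deleted, ranges that overlapped. The knockout-labelled libraries held 0.673, 0.541 and 0.473 CPM with RAS present and 0.285, 0.280 and 0.472 CPM with RAS deleted. With RAS deleted the 2 ERF labels did not overlap (log2 difference -2.19, SE 0.42). With RAS present they overlapped through 1 wild-type library (log2 difference -1.22, SE 0.38), and the difference ran from -1.61 to -0.80 over fits lacking 1 library, on both sides of 2-fold.

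Pdzrn4 was high in 1 group only. With ERF wild type and RAS deleted in 2iL its replicates held 3.06, 7.51 and 6.34 CPM (57, 148 and 131 counts), a wide spread in which all 3 lay above every other library. With RAS present the values were 0.280, 0.595 and 0.975 CPM (8, 10 and 21 counts), so the log2 difference was 3.22 (SE 0.40), or 9.33-fold. All 6 knockout-labelled 2iL libraries were at 2 counts or fewer. Summed counts of 336 with ERF wild type against 3 under the knockout label, both with RAS deleted, gave a depth-scaled ratio of 95.5 (32.4 to 465). With RAS present, 39 against 4 counts gave 8.50 (3.07 to 32.7).

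In FA Pdzrn4 went against the rule by which it was chosen. With ERF wild type it held 5 and 9 counts (0.180 and 0.426 CPM) with RAS present and 1, 2 and 3 counts with RAS deleted, which is a ratio of 3.59 (1.30 to 11.4) in favour of RAS present. The knockout-labelled libraries held 4, 2 and 7 counts (0.163, 0.0869 and 0.279 CPM) with RAS present and 12, 17 and 10 counts (0.386, 0.694 and 0.414 CPM) with RAS deleted. With RAS deleted, the knockout label was above ERF wild type by a ratio of 6.14 (2.58 to 17.8). Below the high 2iL group, which was clear of all others, each of the other 7 groups of Pdzrn4 overlapped its neighbour in the order of means.

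**Figure D1:**
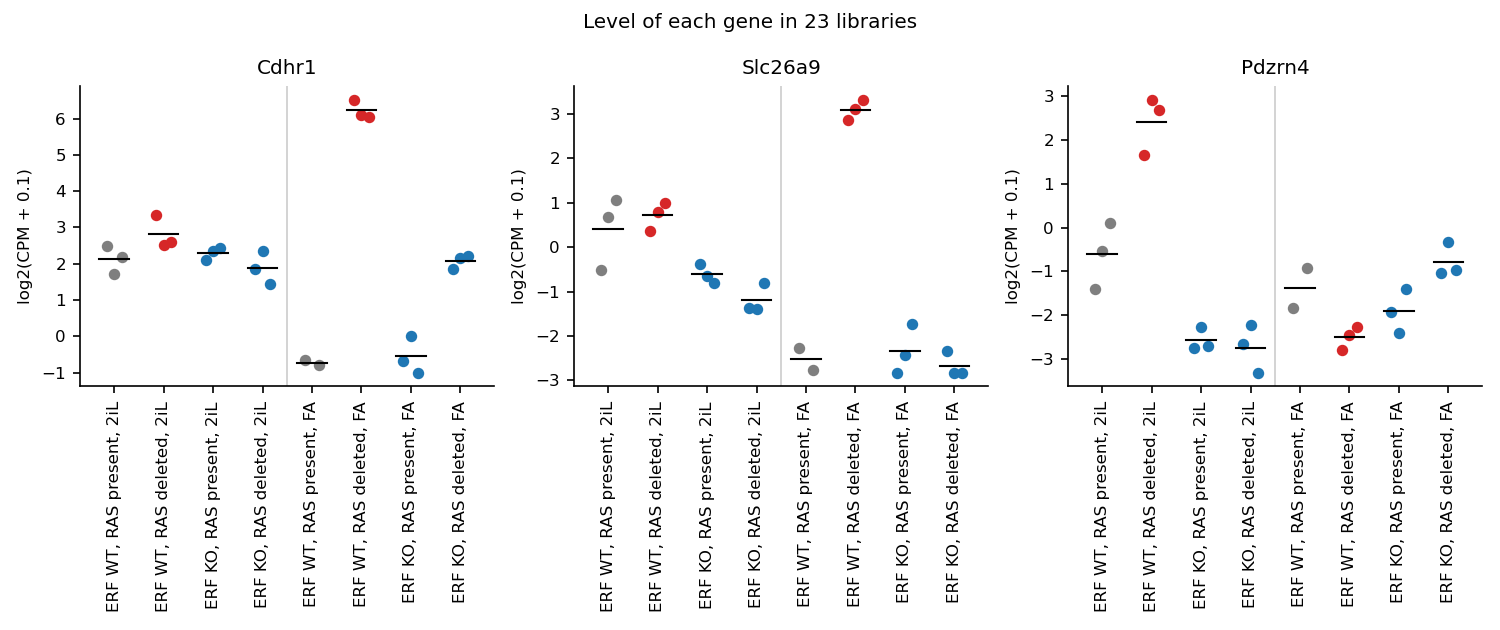
Level of Cdhr1, Slc26a9 and Pdzrn4 in each of 23 libraries, as log2(CPM + 0.1), by group; points are libraries, colours mark ERF wild type with RAS deleted (red) or present (gray) and the ERF knockout label (blue), and black bars are means of the plotted values. Cdhr1 (65.7 to 91.6 CPM) and Slc26a9 (7.10 to 9.85 CPM) peak in the red FA group, and Pdzrn4 (3.06 to 7.51 CPM) in the red 2iL group.

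Levels can be compared between genes only per length, in the deposited TPM, a share of the transcripts of a library that is corrected for length. On that scale Cdhr1 stood at 18.8 ± 1.92 (SD, n = 3) in its high group and Slc26a9 at 2.64 ± 0.497 TPM (SD, n = 3) in the same libraries, while Pdzrn4 reached 2.01 ± 0.957 TPM (SD, n = 3) in its own high group. Cdhr1 and Slc26a9 followed each other over the 8 group means of log2(CPM + 1) with r = 0.93, and over the 23 libraries with r = 0.893. Pdzrn4 followed neither, with r over group means of 0.0397 to Cdhr1 and 0.101 to Slc26a9. These correlations are descriptions over libraries that share the groups by which the genes were chosen.

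The share of all genes with the choosing pattern was counted as background. A gene was called where edgeR's quasi-likelihood test gave a Benjamini-Hochberg adjusted p under 0.05 and at least a 2-fold difference. In FA, 8.93% of tested genes were called higher with RAS deleted in ERF wild type, Cdhr1 and Slc26a9 among them. The knockout label with RAS deleted had 8.48% of genes called lower than ERF wild type, again including both. In 2iL, the corresponding shares were 0.692% and 7.15%. Pdzrn4 was in both 2iL sets, and Slc26a9 only in the second. Both calls together held for 1233 genes in FA (6.05%), for 61 genes in 2iL (0.299%) and for 24 genes in both media (0.118%); none of the 3 was among the 24. By fitted RAS difference Cdhr1 ranked 6 and Slc26a9 17 of the 1233, and Pdzrn4 ranked 3 of the 61. By fitted ERF label difference the ranks were 97, 8 and 3. Since these comparisons chose the genes, nothing is read from their calls.

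The change of medium was compared within each genotype, which shows how each gene stood after 48 hours in FA. The genes were chosen by their levels in these libraries, high in some groups and low in others, so the medium differences are descriptions without p-values. In ERF wild-type cells with RAS present, Cdhr1 and Slc26a9 were lower in FA than in 2iL. Cdhr1 differed by -3.11 on the log2 scale (SE 0.40), and its 2 FA libraries lay below all 3 in 2iL. Slc26a9 held 85 summed counts in 2iL and 4 in FA, a depth-scaled ratio of 15.5 (5.85 to 58.3) and a fitted log2 difference of -3.94 (SE 0.59), or -4.66 without replicate 1 of the FA libraries. Pdzrn4 differed by -1.03 (SE 0.58), with overlapping ranges. Cdhr1 and Slc26a9 were among the 10.8% of all tested genes called lower here, from which nothing is read about them. Pdzrn4 was not, except in the fit without replicate 1 of its 2iL libraries (-1.44).

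With RAS deleted and ERF wild type, Cdhr1 and Slc26a9 were higher in FA than in 2iL and Pdzrn4 was lower. These are the libraries in which the genes were chosen for being high. Cdhr1 differed by 3.39 (SE 0.23) and Slc26a9 by 2.43 (SE 0.30) on the log2 scale, with no overlap between the media. Pdzrn4 held 336 summed counts in 2iL and 6 in FA, a depth-scaled ratio of 71.5 (32.5 to 196). The medium response with RAS deleted minus that with RAS present was 6.50 (SE 0.44) for Cdhr1, 6.37 (SE 0.65) for Slc26a9 and -5.03 (SE 0.88) for Pdzrn4. Of all tested genes, 16.5% were called for medium in this genotype and 11.9% for the difference between the 2 responses. The Slc26a9 value was 7.10 without replicate 1 of the RAS-present FA group, and the Pdzrn4 value was -4.34 without its replicate 2.

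In the knockout-labelled cells with RAS present, Cdhr1 and Slc26a9 were again lower in FA, and both were among the 7.46% of tested genes called lower, with 19.7% called in either direction. Cdhr1 differed by -2.97 (SE 0.33), from a mean of 4.81 to 0.614 CPM, with no overlap. Slc26a9 differed by -2.30 (SE 0.55), from 9 to 14 counts per library to 1 to 5, and by -3.06 without replicate 3 of the FA group. Pdzrn4 had 4 summed counts in 2iL and 13 in FA, a ratio of 2.61 (0.806 to 10.98).

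With RAS deleted under the knockout label the 3 genes differed from each other in their medium values. Cdhr1 had overlapping ranges in the 2 media (log2 difference 0.14, SE 0.26), with 2.63 to 4.98 CPM in 2iL and 3.51 to 4.56 CPM in FA. Slc26a9 held 17 summed counts in 2iL and 5 in FA, a ratio of 5.39 (1.91 to 18.7) and a fitted log2 difference of -2.34 (SE 0.67). Pdzrn4 held 3 summed counts in 2iL and 39 in FA, a ratio of 8.20 (2.61 to 41.5) and a fitted log2 difference of 2.94 (SE 0.76). In this comparison 10.4% of tested genes were called lower, Slc26a9 among them, and 14.5% higher, Pdzrn4 among them. The fitted Pdzrn4 value was 3.77 without replicate 2 of the 2iL group, which held 2 of its 3 counts.

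The RAS comparison under the knockout label shows how the genes stood after OHT in the groups that the choice asked to be low, and its values are likewise given without p-values. In FA, Cdhr1 was higher with RAS deleted, by 2.75 on the log2 scale (SE 0.33), or 6.74-fold, and all 3 RAS-deleted libraries lay above all 3 with RAS present. It was among the 2.81% of tested genes called higher, with 6.88% called in either direction. Pdzrn4 was 2.71-fold higher without overlap (log2 difference 1.44, SE 0.56), 1.92 without replicate 3 of the RAS-present group. It was not called, but was in that fit and in a fit with no filter on low counts. Slc26a9 held 8 against 5 summed counts (log2 difference -0.76, SE 0.78), and without replicate 3 of the RAS-present group that difference was -0.02. The size of the Cdhr1 response under the 2 ERF labels, 7.19 and 2.75, was not tested for a difference.

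In 2iL under the knockout label, where 0.211% of all tested genes were called for RAS, Cdhr1 differed by -0.36 (SE 0.27) with overlapping ranges. Slc26a9 differed by -0.72 (SE 0.48), and its 2 ranges, at 5 to 7 counts per library with RAS deleted and 9 to 14 with RAS present, did not overlap in CPM. Pdzrn4 was at 2 counts or fewer on both sides, so no ratio is given.

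**Figure D2:**
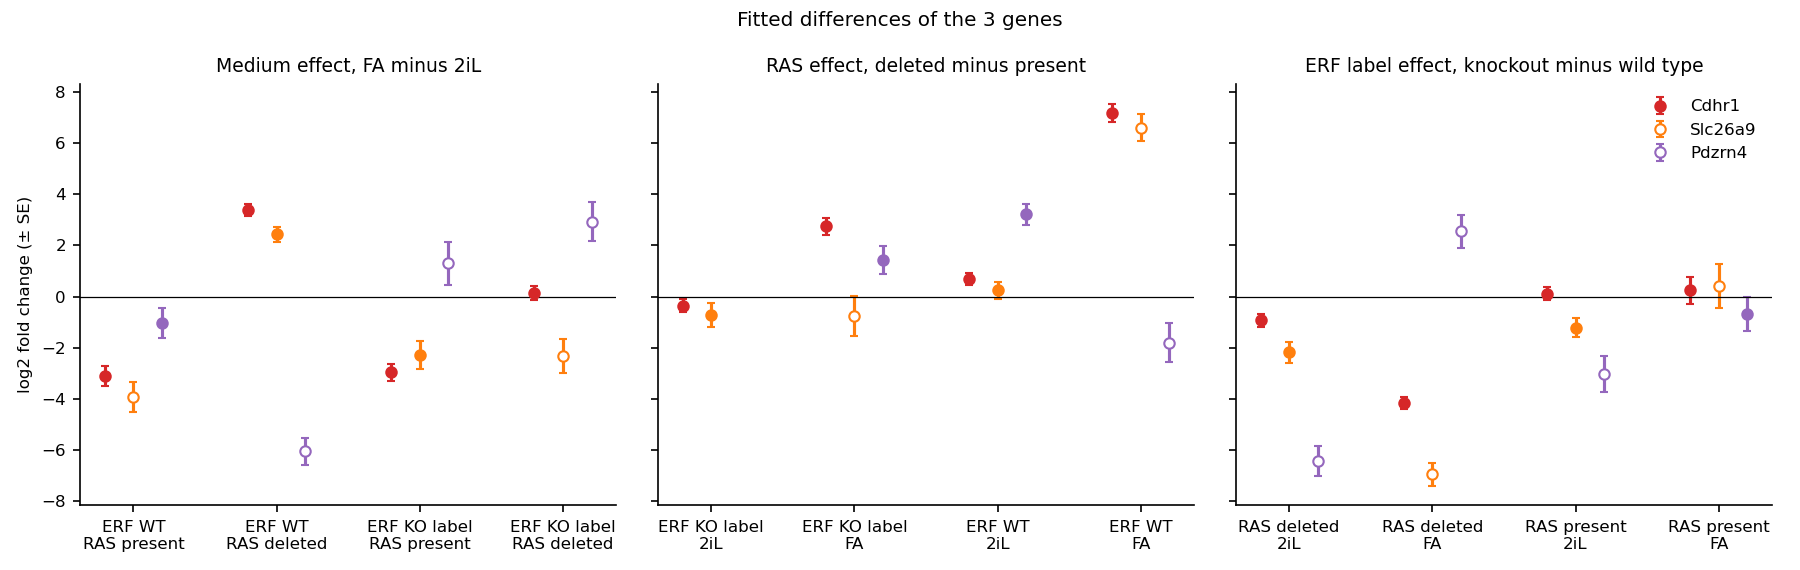
Log2 differences of Cdhr1, Slc26a9 and Pdzrn4 in the fitted comparisons, with bars of 1 SE; open symbols mark comparisons in which 1 group was at 3 counts or fewer in every library. The medium differences of Cdhr1 change from -3.11 with RAS present to 3.39 with RAS deleted in ERF wild type, while Pdzrn4 runs from -1.03 to -6.05.

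The deposited tables also give a length per gene, averaged over the transcripts to which reads were assigned. Cdhr1 has 1 transcript and was listed at 4332 bases in all 23 libraries. Slc26a9 was listed at 3050, 4102.5 and 3558.5 bases in the 3 libraries where it was high, so a part of its reads went to transcripts shorter than the full 4739 bases. In 2iL with ERF wild type it ran from 3491.4 to 4739 bases, and all 6 knockout-labelled 2iL libraries were at 4739. Their counts were only 5 to 14 per library. In its high group Pdzrn4 was listed at 2785.5 to 3124.3 bases, near the 3102 bases of the transcript from the outer start. The knockout-labelled RAS-deleted FA libraries of Pdzrn4 were at 3128.3 to 3160 bases. Since 3376 bases is the length of the internal-start transcript, and shorter non-coding transcripts pull the mean down, these values do not give the share of either start.

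**Figure D3:**
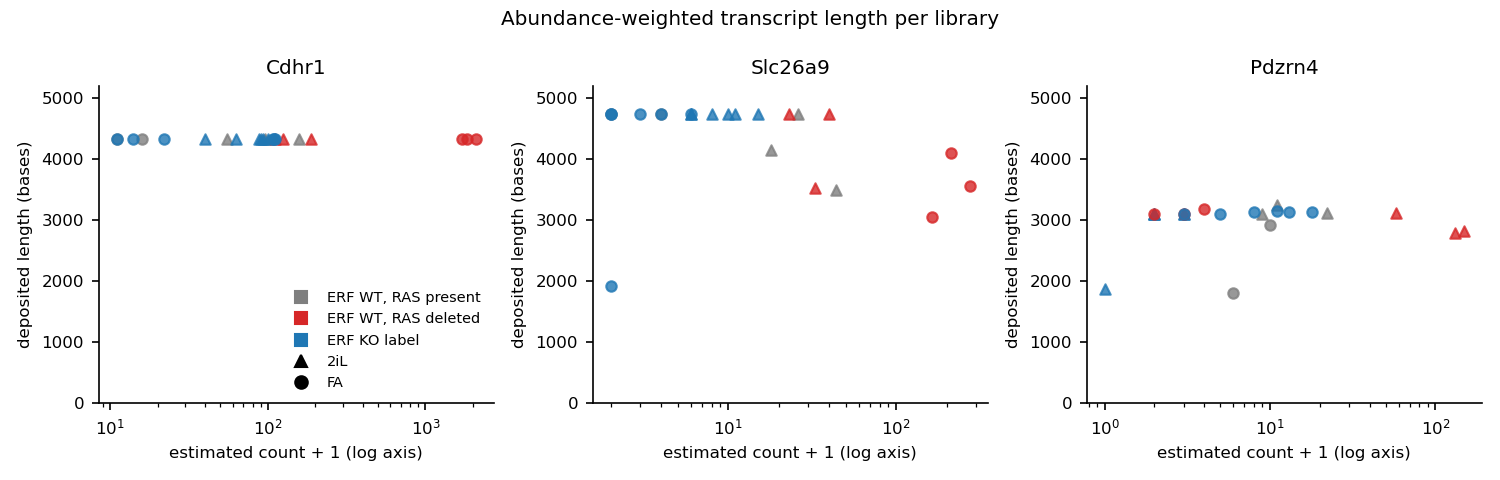
Deposited mean transcript length in bases of Cdhr1, Slc26a9 and Pdzrn4 against the estimated count + 1 of the gene in each library on a log axis; triangles are 2iL and circles FA libraries, coloured by group. Cdhr1 lies at 4332 bases throughout, and the 3 libraries with the most Slc26a9 counts lie at 3050 to 4102.5 bases, below the full transcript of 4739 bases.

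Markers of the state of the cells moved with Cdhr1 and Slc26a9 in FA. Summed over 6 naive genes (Klf4, Esrrb, Tfcp2l1, Prdm14, Tbx3 and Klf2), all detected, the level was 542 to 955 CPM with ERF wild type and RAS deleted and 87.9 to 139 CPM in the other 3 FA groups. The 4 primed epiblast genes (Fgf5, Otx2, Pou3f1 and Dnmt3b), also all detected, summed to 102 to 291 CPM there and to 343 to 619 CPM in the other FA groups. Other lists moved in these libraries too. The 4 neural genes summed to 13.3 to 24.8 CPM with ERF wild type and RAS deleted and to 46.0 to 103 CPM in the other FA groups, and the 5 primitive endoderm genes to 7.55 to 10.98 CPM against 10.94 to 88.3 CPM. The 5 trophoblast genes summed to 25.2 to 30.6 CPM, overlapping the 23.3 to 28.6 CPM of ERF wild type with RAS present and above the 9.64 to 21.5 CPM of the knockout-labelled FA groups. Of these genes, Gata3 stood at 18.1 ± 0.528 CPM (SD, n = 3) against means of 0.632 to 3.35 CPM in the other FA groups. Elf5 also had its highest FA mean there, 0.816 CPM against 0.311 to 0.610 CPM. Hand1 and Cdx2 had their lowest, 0.335 against 1.42 to 7.27 CPM and 0.060 against 0.137 to 0.454 CPM. Eomes, at 8.28 CPM, lay within the other means of 7.78 to 16.3 CPM. The 6 pluripotency genes summed to 1912 to 2282 CPM against 916 to 1125 CPM, and the 5 fibroblast genes, of which 1 never exceeded 3 counts, to 1.90 to 3.51 CPM against 4.14 to 7.14 CPM. All members of these 5 lists were detected in some library. The part of these shifts in the levels of Cdhr1 and Slc26a9 was not tested. In these bulk libraries, fewer cells that express a gene and less RNA per cell cannot be told apart. In 2iL, where Pdzrn4 differed, ERF wild type with RAS deleted summed to 2262 to 2386 CPM of naive genes, within the 2176 to 2489 CPM of the RAS-present group, and to 51.2 to 63.7 CPM of primed genes, within its 43.5 to 72.5 CPM. In 2iL with ERF wild type and RAS deleted, the 5 trophoblast genes summed to 12.7 to 13.8 CPM. With RAS present they summed to 12.0 to 13.4 CPM, an overlapping range. Of them, Cdx2 stood at 1.37 ± 0.463 CPM (SD, n = 3) with RAS deleted and at means of 0.075 to 0.168 CPM in the other 2iL groups. Against RAS present, Eomes had a higher mean (7.76 and 6.38 CPM). Gata3 (3.29 and 5.04 CPM) and Hand1 (0.201 and 0.495 CPM) had lower ones, and Elf5 was alike (0.590 and 0.571 CPM). The part of Cdx2 in the Pdzrn4 level was not tested. Neural genes summed to 6.29 to 7.61 CPM there and to 9.94 to 25.7 CPM in the other 2iL groups. The knockout-labelled 2iL groups summed to 43.1 to 51.2 CPM of primed genes. For naive genes they summed to 2213 to 2377 CPM with RAS present and 2501 to 2870 CPM with RAS deleted.

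Markers of the tissues in which Slc26a9 is best known were low where it was highest. Of 6 airway and gastric genes, 5 never exceeded 3 counts in a library, with Tff1 and Atp4b at 0 in all. The 6 summed to 0.567 to 0.647 CPM in the group where Slc26a9 was highest and to no more than 5.18 CPM in any library.

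Relatives of Cdhr1 were read from a list of 12 cadherin-related genes, of which 9 were tested. In FA with ERF wild type, RAS deletion went with 1 gene rising and 3 falling, against 8.93% and 8.33% of all tested genes. Their median log2 difference was -0.51, with 0.00 over all tested genes. The riser was Fat2, a giant atypical cadherin, at 21.001 ± 7.95 CPM (SD, n = 3) with RAS deleted and 0.458 ± 0.0885 CPM (SD, n = 2) without (log2 change 5.52, SE 0.53, edgeR adjusted p = 8.68e-08). Under the knockout label with RAS deleted Fat2 stood at 0.424 ± 0.0443 CPM (SD, n = 3), lower by 5.60 (SE 0.45, edgeR adjusted p = 5.16e-09). Among the FA groups Fat2, like Cdhr1, was highest with ERF wild type and RAS deleted. Fat3, a giant cadherin of the same family, went the other way, falling by 3.98 with RAS deleted (SE 0.30, edgeR adjusted p = 5.16e-10). Cdhr4 and Dchs2 were the other fallers, at -1.55 and -1.33. By ERF label with RAS deleted in FA, 4 of the 9 were higher and 2 lower under the knockout label, against 8.13% and 8.48% of all tested genes, with a median of 0.60 beside 0.01 over all genes.

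Of 3 photoreceptor disc genes (Prom1, Prph2 and Rom1), Prom1 and Rom1 were tested. Prom1, a membrane protein of cell protrusions that binds Cdhr1 in photoreceptors, moved opposite to it. It fell with RAS deleted in FA by 2.39 (SE 0.19, edgeR adjusted p = 6.09e-10), from a mean of 18.7 (SD 0.537, n = 2) to 3.55 CPM (SD 0.936, n = 3). Under the knockout label with RAS deleted it was higher by 3.19 (SE 0.17, edgeR adjusted p = 2.02e-12), at 32.5 ± 0.474 CPM (SD, n = 3). Rom1 was not called in these 2 comparisons.

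Of the relatives of Slc26a9, 10 other SLC26 genes, 5 were tested, and their median log2 difference with RAS deleted in FA was -0.33. Of these 5, Slc26a10 was the 1 called in FA, falling by 1.80 with RAS deleted (SE 0.25, edgeR adjusted p = 3.44e-06) and higher by 1.44 under the knockout label with RAS deleted (SE 0.23, edgeR adjusted p = 2.18e-05), where 8.33% of all tested genes were called lower and 8.13% higher. Of 8 further genes of chloride transport, all tested, 2 rose and 2 fell with RAS deleted in FA, with a median of 0.08, beside 8.93% and 8.33% of all tested genes. Ano1, a calcium-activated chloride channel, rose by 1.53 (SE 0.33, edgeR adjusted p = 0.00063), and Slc12a2, a sodium-potassium-chloride cotransporter, rose by 1.01. Cftr, the chloride channel with which Slc26a9 interacts in epithelia, fell by 1.56 (SE 0.58, edgeR adjusted p = 0.0339), as did Stk39, a kinase that activates Slc12a2, by 1.60. Cftr was low in these FA libraries. It held 19 and 22 counts with RAS present, 1 to 14 with RAS deleted, and 15 to 34 with RAS deleted under the knockout label. Cftr and Stk39 were also the 2 of the 8 that were higher under the knockout label with RAS deleted in FA, by 1.68 (SE 0.52, edgeR adjusted p = 0.0118) and 1.92, beside 8.13% of all tested genes. Cftr and Stk39 thus differed with signs opposite to those of Slc26a9 in both comparisons.

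Pdzrn3, the nearest relative of Pdzrn4 and a ubiquitin ligase of the same RING and PDZ family, was higher in the same 2iL group. It held 5.27 ± 0.262 CPM (SD, n = 3) with RAS deleted and 2.39 ± 0.375 CPM (SD, n = 3) with RAS present in ERF wild type (log2 change 1.15, SE 0.28, edgeR adjusted p = 0.0174), against 0.692% of tested genes called higher. Under the knockout label with RAS deleted it was at 1.59 ± 0.522 CPM (SD, n = 3), lower by 1.72 (SE 0.30, edgeR adjusted p = 8.1e-05). In FA the sign of the label difference turned, as for Pdzrn4: Pdzrn3 was higher by 1.57 under the knockout label (SE 0.27, edgeR adjusted p = 4.79e-05). Its highest mean, however, was 7.43 ± 1.67 CPM (SD, n = 3) in the knockout-labelled RAS-deleted FA group. Salmon shares reads among similar sequences, so part of a likeness between relatives can come from shared reads, which was not tested. Of the other LNX relatives, both tested, Lnx1 was called in FA, falling by 1.78 with RAS deleted (SE 0.70, edgeR adjusted p = 0.0442), beside 8.33% of all tested genes called lower. Its counts were low, at 4 and 14 with RAS present and 1 to 5 with RAS deleted, and the ranges overlapped in CPM. Lnx2 was not called in these comparisons.

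**Figure D4:**
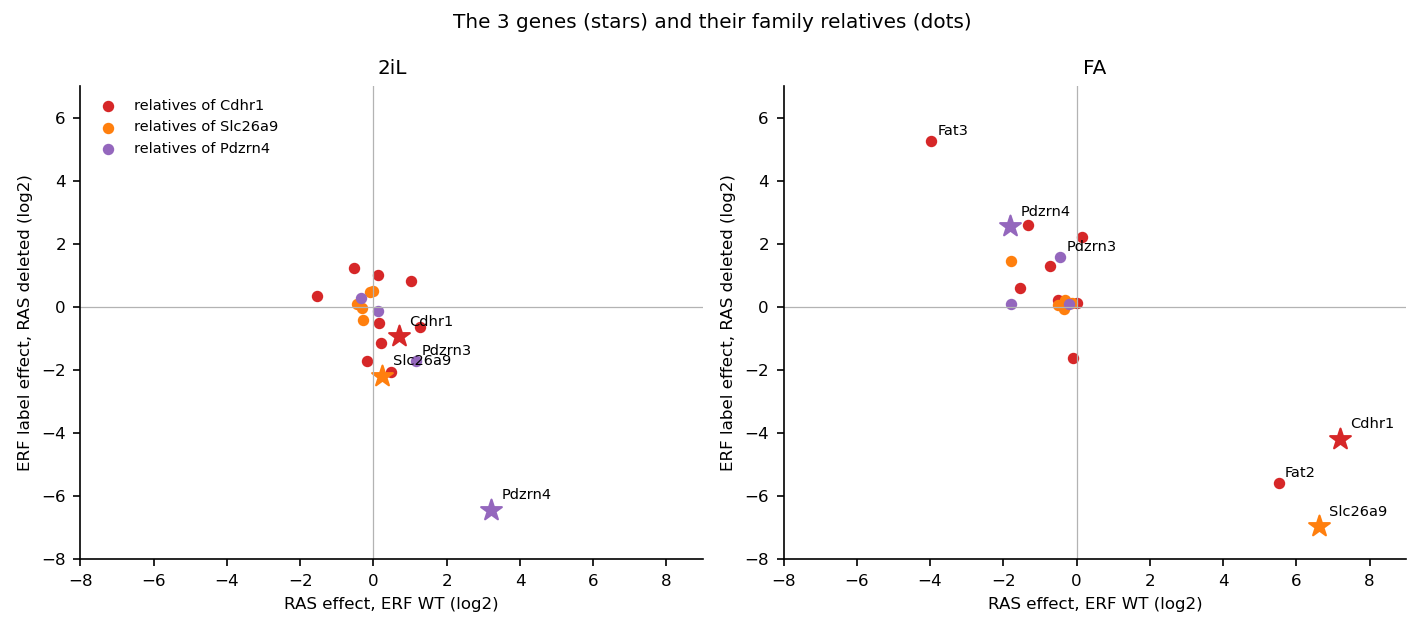
Log2 difference for RAS deletion in ERF wild type (horizontal) and for the ERF label with RAS deleted (vertical) in 2iL and FA, for the tested relatives (dots) and Cdhr1, Slc26a9 and Pdzrn4 (stars); both axes share the libraries of ERF wild type with RAS deleted. In FA, Fat2 lies at 5.52 and Fat3 at -3.98 on the RAS axis, and in 2iL Pdzrn3 lies at 1.15.

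Of 15 ERK target genes, all tested, 1 rose and 9 fell with RAS deleted in FA with ERF wild type (median log2 difference -2.82, beside 0.00 over all tested genes), where Cdhr1 and Slc26a9 stood high. These counts stand beside 8.93% and 8.33% of all tested genes. Under the knockout label the same comparison had 1 of the 15 rising and 8 falling (median -1.04), beside 2.81% and 4.06% of tested genes. Ccnd1, a cell cycle gene, was the riser with ERF wild type, by 1.10 (SE 0.32, edgeR adjusted p = 0.0114). Etv4, an ETS activator induced by ERK, fell by 3.09 (SE 0.21, edgeR adjusted p = 2.9e-10). By ERF label with RAS deleted in FA, 3 of the 15 were higher and 1 lower under the knockout label (median 0.25), beside 8.13% and 8.48% of tested genes. Etv4 was the lower one, by 2.95 (SE 0.30, edgeR adjusted p = 1.06e-07). Those higher were Spry2 and Spred1, both inhibitors of RAS signalling, by 2.69 and 1.97, and the growth regulator Myc by 2.21.

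The 5 annotated genes on each side of each gene were examined for changes shared with the locus, and 11 of these 30 were tested. Near Cdhr1, the retinal genes Lrit2, Lrit1 and Rgr, 4.11, 12.9 and 28.9 kb away, never exceeded 4 counts in a library and were not tested. Its tested neighbours Ghitm and Ccser2 were not called, with log2 differences for RAS in FA of -0.30 (SE 0.14) and 0.32 (SE 0.09). Ccser2 passed the adjusted p (edgeR adjusted p = 0.00497) but not the 2-fold minimum. Under the knockout label with RAS deleted in FA it differed by -0.25 (SE 0.08, edgeR adjusted p = 0.00958), and Ghitm by -0.07 (SE 0.13). Among the untested neighbours, Rgr was at 0 in 7 groups and at a mean of 0.076 CPM with ERF wild type and RAS deleted in FA, and 2610528A11Rik, 3.79 kb away, had its highest mean there, 0.113 CPM, with at most 6 counts in a library. Near Slc26a9, 2 of 6 tested genes rose with RAS deleted in FA, against 8.93% of all genes. Pm20d1, a secreted enzyme of N-acyl amino acid metabolism 25.9 kb away, rose by 1.00 (SE 0.17, edgeR adjusted p = 3.35e-05). Rab29, a small GTPase gene 95.7 kb away, rose by 1.50 (SE 0.22, edgeR adjusted p = 6.2e-06) and was lower by 1.73 under the knockout label with RAS deleted (SE 0.19, edgeR adjusted p = 1.14e-07). The neighbours Slc41a1, a magnesium transporter gene 56.0 kb away, and Nucks1, a chromatin protein gene 139 kb away, passed the adjusted p but not the 2-fold minimum. They differed by 0.86 (edgeR adjusted p = 1.1e-05) and 0.66 (edgeR adjusted p = 5.78e-08) with RAS deleted in FA, and by -0.91 and -0.37 under the knockout label with RAS deleted. In 2iL Avpr1b, a vasopressin receptor 132 kb away, was lower by 2.25 under the knockout label with RAS deleted (SE 0.43, edgeR adjusted p = 0.000204). Near Pdzrn4, 1 of 3 tested genes was called in FA, beside 8.93% of all genes higher for RAS and 8.48% lower for the label. This was the mucin gene Muc19, 462 kb away. It rose by 3.23 with RAS deleted in FA (SE 0.39, edgeR adjusted p = 1.12e-06), where Pdzrn4 itself was at 3 counts or fewer. Under the knockout label it was lower by 2.40 (SE 0.31, edgeR adjusted p = 2.82e-06). The nearer Gm26760 and Cntn1, 18.8 and 54.9 kb away, were not called, at -0.48 (SE 0.54) and 0.19 (SE 0.33) for RAS in FA.

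**Figure D5:**
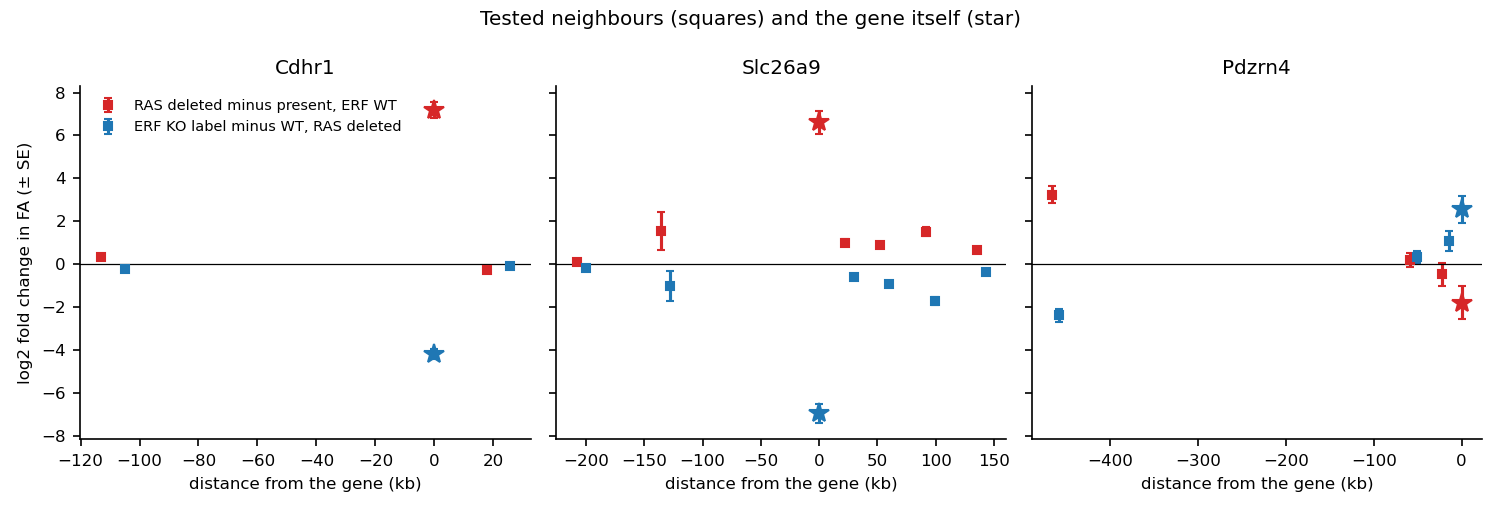
Log2 difference of each tested neighbour against its distance in kb from Cdhr1, Slc26a9 or Pdzrn4 (stars at 0), with bars of 1 SE, in FA, for RAS deletion in ERF wild type (red) and for the ERF label with RAS deleted (blue), the 2 colours set slightly apart along the axis. The neighbours run from small differences to 3.23 for Muc19, while Cdhr1 lies at 7.19 and Slc26a9 at 6.61.

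Genes most like each member over the 8 group means of log2(CPM + 1) were ranked by Pearson's r. The ranking held 11147 genes with a highest mean of at least 5 CPM. Names of predicted genes, clones, pseudogenes, antisense and mitochondrial genes were left out of it. For Cdhr1 they were Dcbld1 (r = 0.98), Panct2 (0.972), Ncoa1 (0.969), Pgghg (0.968) and Sipa1l3 (0.965). Their changes were far smaller than that of Cdhr1: Dcbld1 ran from 17.2 to 31.6 CPM and Panct2, a non-coding RNA gene, from 2.22 to 16.2 CPM, both highest with ERF wild type and RAS deleted in FA. For Slc26a9 they were H2-Aa (0.979), Slc4a8 (0.977), Slc6a6 (0.975), Nr3c2 (0.968) and Oaz2 (0.965). With a pseudocount of 0.1 these 5 ranked 62, 8, 14, 97 and 164 in that order, while those of Cdhr1 ranked 1 to 14 and those of Pdzrn4 2 to 28. H2-Aa, an MHC class II chain, ran from 0.409 to 5.38 CPM, and Nr3c2, the mineralocorticoid receptor, from 1.21 to 17.1 CPM. The likeness for Pdzrn4 was weaker: Nin had r = 0.945, Trim39 0.942, Nav1 0.934, Hacd3 0.932 and Sp100 0.926. Among the ranked genes none reached 0.95, compared with 11 for Cdhr1 and 15 for Slc26a9. Nin, a centrosome protein, held 72.7 CPM with ERF wild type and RAS deleted in 2iL and 19.1 CPM at its lowest. Sp100, a nuclear body protein, ran from 0.239 to 6.35 CPM. Over the single 23 libraries r ranged from 0.696 for Nav1 with Pdzrn4 to 0.954 for Panct2 with Cdhr1. The 8 points share libraries and normalisation, and these values are descriptions.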

How the data were processed

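RNA was sequenced from 23 libraries. Per the labels, RNA was depleted of ribosomal RNA, and strand-specific libraries were read as paired ends. The submitters' processing notes list bcl2fastq 2.20.0, fastp 0.20.0, Salmon without a version, and the build mm10. The authors deposited Salmon's estimated counts, TPM, and lengths in bases per gene for each library, and a table of whole-number counts per gene, in which 0 cells differ from the rounded estimated counts. TPM deposited by the authors are scaled for length and were used as values. The other length columns, deposited per gene by the authors, served 1 alternative and the isoform description.

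The count test was edgeR 4.0.16 under R 4.3.3 (filterByExpr, TMM, robust quasi-likelihood, 1 model of 23 libraries, 20372 of 53607 genes tested), with p-values adjusted over all tested genes by Benjamini-Hochberg; calls needed an adjusted p under 0.05 and at least 2-fold. The SE is the absolute log2 difference divided by the square root of F. Ratios of summed counts are scaled to library size, with exact 95% intervals. A floor of 3 counts per library was used. The fit was tested on simulated data. Alternatives were other scaling, no filter, a length offset, only the compared groups, a replicate block, DESeq2 1.42.0 and leaving out each library.

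The 3 genes and all lists were chosen with earlier results of these data known. Named genes are the 3, list genes on which a result turns, every neighbour called in the RAS comparisons with ERF wild type or in the ERF comparisons with RAS deleted, and the 5 most similar genes. The labels put all libraries in groups and give no batch or date. The floxed Ras gene is not reported here. Replicate numbers were taken from the labels. In 5 of 12 comparisons every same-numbered pair of libraries deviated together (r of 0.103 to 0.380), namely medium with ERF wild type and RAS deleted, both medium comparisons under the knockout label, and RAS in 2iL under both labels, and the numbers were taken to pair the libraries there. The SE and p-values given above come from the model without that pairing. Fits with a replicate block were read only for the 3 genes and the counts of called genes.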

Additional observations from a re-analysis of the deposited data

Results flagged for a closer look

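With ERF wild type, the medium response differed with the state of RAS for all 3 genes. The difference of responses was 6.50 for Cdhr1, 6.37 for Slc26a9 and -5.03 for Pdzrn4 on the log2 scale. The genes were chosen with libraries of this comparison, so these are descriptions.

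In 4 pairs of comparisons every library of 1 group moved one way and every library of the other the opposite way, and the differences between them were not tested. Slc26a9 was higher in FA than in 2iL by 2.43 with RAS deleted and ERF wild type, and differed by -2.34 with RAS deleted under the knockout label. Pdzrn4 differed between RAS deleted and present in FA by -1.80 with ERF wild type and by 1.44 under the knockout label. The first ran from -2.33 to -1.11 over fits lacking 1 library, nearest 0 without replicate 2 of RAS present. With RAS deleted, its medium difference (FA minus 2iL) was -6.05 with ERF wild type and 2.94 under the knockout label. Its difference between the ERF labels with RAS deleted (knockout minus wild type) was -6.44 in 2iL and 2.55 in FA. Without replicate 2 of the knockout-labelled 2iL libraries the first was -7.28. All Pdzrn4 values but 1.44, and 6.37 and -2.34 for Slc26a9, were fitted against a group at 3 counts or fewer per library, so their size depends on the prior count.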

How the results depend on the processing

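Over 478 alternative values of 38 results for Cdhr1, Slc26a9 and Pdzrn4, 470 stayed on their side of the threshold or, where untested, within the replicate spread, and 472 kept their sign; some small differences changed sign within the spread or below the threshold. The cause of the changes below was not tested. The Pdzrn4 medium difference with ERF wild type and RAS present was -1.44 and passed the call thresholds without replicate 1 of the 2iL group and ran from -1.72 to -0.49 over all fits lacking 1 library. The Pdzrn4 RAS difference under the knockout label in FA was 1.42 and passed the thresholds with no filter, and ran from 1.12 to 1.92. The Slc26a9 RAS difference in FA with ERF wild type was 7.04 with a length offset and ran from 6.24 to 7.34. Its ERF label difference with RAS deleted in FA ran from -7.51 to -6.77. With RAS present in FA it ran from -0.34 to 1.15, so its sign rests on single libraries with 1 to 5 counts. The other sign changes, all by leaving out 1 library from a small difference, were the Cdhr1 medium difference under the knockout label with RAS deleted (-0.05), the Cdhr1 label difference with RAS present in 2iL (-0.05) and FA (-0.12), the Slc26a9 RAS difference in 2iL with ERF wild type (-0.16), and the Pdzrn4 label difference with RAS present in FA (0.00). The Pdzrn4 RAS difference in 2iL under the knockout label, with both groups at 2 counts or fewer per library, was left out of the 38 results, and its fitted value ran from -1.04 to 0.28.

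Fits with the replicate block gave 27 values for the 3 genes, and in 0 of them did the block change a call, for example 3.42 for the Cdhr1 medium difference with ERF wild type and RAS deleted and 3.17 for the Pdzrn4 RAS difference in 2iL with ERF wild type. In the 7 comparisons in which the numbers did not pair the libraries, correlations ran from -0.0795 to 0.197. Other scaling, a length offset, no filter, DESeq2, a fit without the most abundant gene and fits of only the compared groups moved the median difference of all genes by at most 0.0346.

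The background counts were less stable. For RAS in 2iL under the knockout label, 43 genes were called, 240 with no filter, 27 with the length offset, 75 with only the compared groups, 207 with the replicate block in those groups, 78 by DESeq2, and 17 to 40 without 1 library, lowest without replicate 2 or 3 of RAS deleted. For RAS in 2iL with ERF wild type, 244 were called, 559 with no filter and 70 to 305 without 1 library, lowest without replicate 1 of RAS present. For the ERF label with RAS present in FA, 480 were called, 881 with no filter, 266 with only the compared groups and 124 to 749 without 1 library, these 2 without replicates 1 and 2 of ERF wild type. Dropping the 2-fold minimum raised every background count by over 1.5 times, for example from 3518 to 8420 for RAS in FA with ERF wild type. Low counts limit Slc26a9 and Pdzrn4 outside their high groups.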
